A study of Mus musculus with 2 samples.

Results

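The genes described here encode the proteins that start, carry out and complete the copying of DNA in S phase, and 43 of them were chosen by name for their role in replication, by a rule that sets no threshold on their values but was written with earlier results of these data known. All 43 were found among the 29924 gene names on the array, on 55 of the 39429 probes. Of these, 41 had a mean signal above 100 in control or treated ureters and were tested among 14336 genes, whereas *Ccne2* and *Cdc7* were too dim. The ureters came from newborn (P0) wildtype mice of the NMRI strain and were cultured for 18 h, either with 5 µM IWP-2 or with the solvent DMSO diluted 1:1000 as control. IWP-2 is an inhibitor of Porcupine, the enzyme that attaches the lipid which WNT ligands need for secretion, and the comparison addressed which transcripts depend on WNT signaling in the postnatal ureter. RNA of a treated pool and a control pool was hybridised together on each of 2 two-colour Agilent arrays, with female pools in replicate 1, male pools in replicate 2, and the dyes swapped between the arrays. Each pool held several whole ureters, so that epithelium, smooth muscle and connective tissue were measured together.

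Replication begins when the origin recognition complex, CDC6 and CDT1 load the ring-shaped MCM helicase onto DNA in G1 phase. In S phase CDC45 and the GINS complex turn this ring into an active helicase, DNA polymerases extend the primers laid down by primase, and the sliding clamp PCNA holds the polymerases on the template. Many of these genes are transcribed at the transition from G1 to S phase by E2F transcription factors, so that their transcripts are more abundant in tissues with many dividing cells, such as the newborn ureter, than in resting tissue.

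The WNT target gene *Axin2*, a negative regulator of the pathway, had signals of 181 and 154 in the control pools and of 42.2 and 46.7 in the treated pools of replicates 1 and 2. It fell by 1.91 on the log2 scale (limma, adjusted p = 0.000824). *Lgr5*, a receptor for R-spondins and another WNT target, had signals of 135 and 157 in the control pools, and was at the floor of 15 and at 18.6 in the treated pools. *Porcn*, which encodes the target of the drug, had a mean log2 fold change of −0.04 (limma, adjusted p = 0.958). Between 66.3% and 67.7% of genes were well above background in each channel, 0 spots were saturated, and the number of arrays limits the precision of all values below. Since whole ureters were measured, fewer cells of a type and less RNA per cell cannot be told apart.

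Transcripts of the replication genes were lower in IWP-2-treated than in control ureters for most of the list, by a small and similar amount. Of the 41 genes tested, 38 were lower in both arrays and 0 were higher in both, against 29.1% and 25.7% of all genes tested. The median log2 fold change was −0.24 in replicate 1, −0.24 in replicate 2 and −0.23 in the mean of both arrays, a change of −14.6%. For all genes tested the corresponding medians were −0.004, −0.005 and −0.006. The mean log2 fold changes of the replication genes ranged from −0.38 for *Pole* to 0.08 for *Orc2*, and 29 of them were at or below −0.2. In 38 genes both treated pools lay below both control pools, compared with 17% of all genes tested, and in 0 genes both treated pools lay above both controls, compared with 14%.

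None of these differences passed the test gene by gene. With limma and Benjamini-Hochberg adjustment over the 14336 genes, 0 of 41 replication genes were called at 0.05 in either direction, whereas 1.25% of all genes tested were called, 0.886% as lower and 0.363% as higher. The lowest adjusted p was 0.0621, that of *Pole*, and 14 genes had an adjusted p under 0.15. At an unadjusted p under 0.05, 32 genes were lower and 0 were higher, against 6.64% and 6.27% of all genes tested. The standard errors from limma lay between 0.0664 and 0.0789 on the log2 scale for the 41 genes, while the smallest absolute mean log2 fold change among all genes called was 0.41. The filter used in the study, which asks for more than 100 in the control channel and a 1.5-fold difference in each array, was passed by 0 replication genes, and by 0.356% of all genes tested in the lower and 0.0767% in the higher direction.

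**Figure D1:**
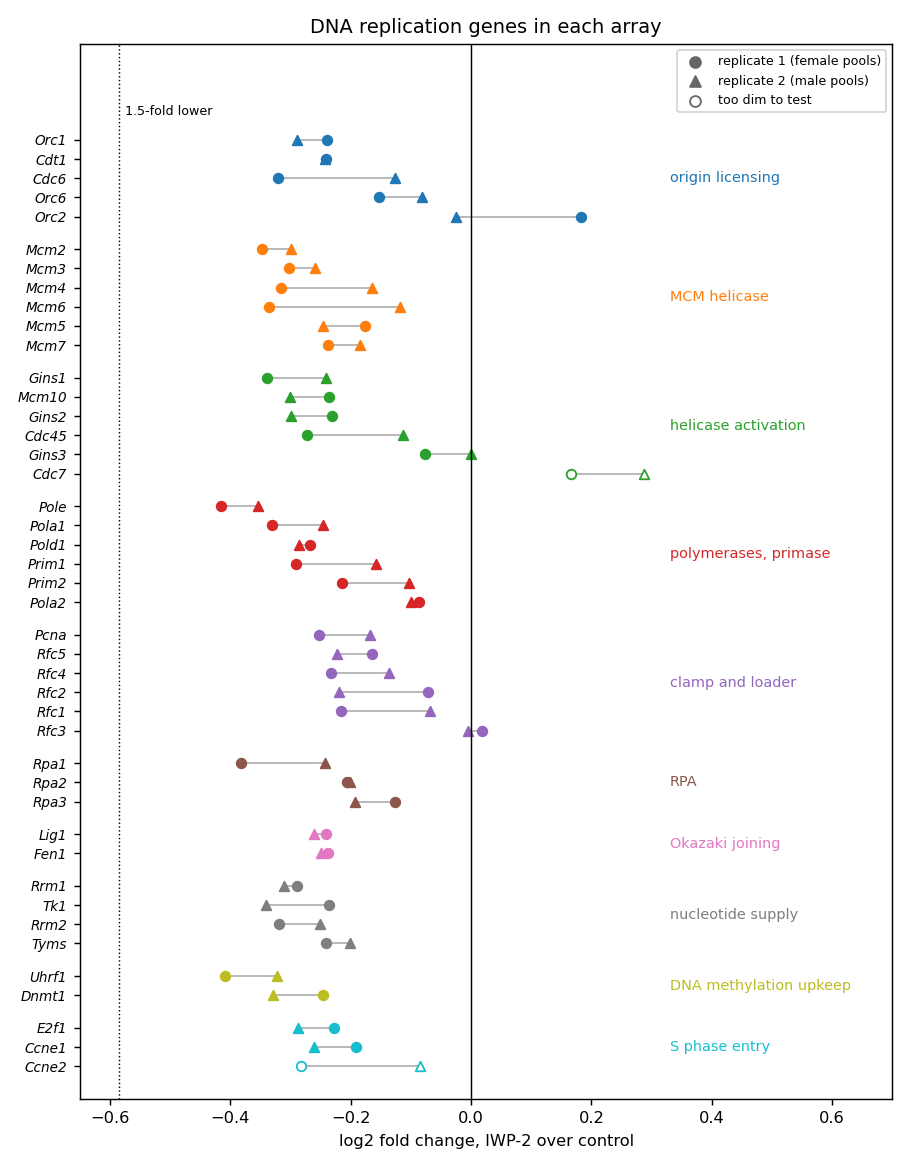
Log2 fold change of each of the 43 replication genes, IWP-2 over control, with a circle for replicate 1 (female pools), a triangle for replicate 2 (male pools) and open symbols for the genes too dim to test, grouped and coloured by role. All points of the 41 tested genes lie to the right of the dotted line at 1.5-fold lower, and 38 of these 41 genes have both points left of 0.

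The 2 arrays gave similar values for most genes. Replicate 1 minus replicate 2 ranged from −0.22 to 0.21 on the log2 scale with a median of −0.04, and 30 of the 41 genes differed by less than 0.1. The same count over all genes tested is not reported here. The Pearson r of the arrays was 0.58 over the 41 genes and 0.44 over all genes tested. The difference was more negative in replicate 1 for 22 genes and in replicate 2 for 19 genes. Single spots went the same way, since 147 of 154 spots of these genes in replicate 1 and 148 of 154 in replicate 2 had a log2 ratio below 0. The spots of a gene are copies of the same probe read on the same pools, and are not further replicates. Of the 12 further probes carried by 10 of the genes, 3 were at the floor in all channels, and 8 of the other 9 were lower in both arrays.

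**Figure D2:**
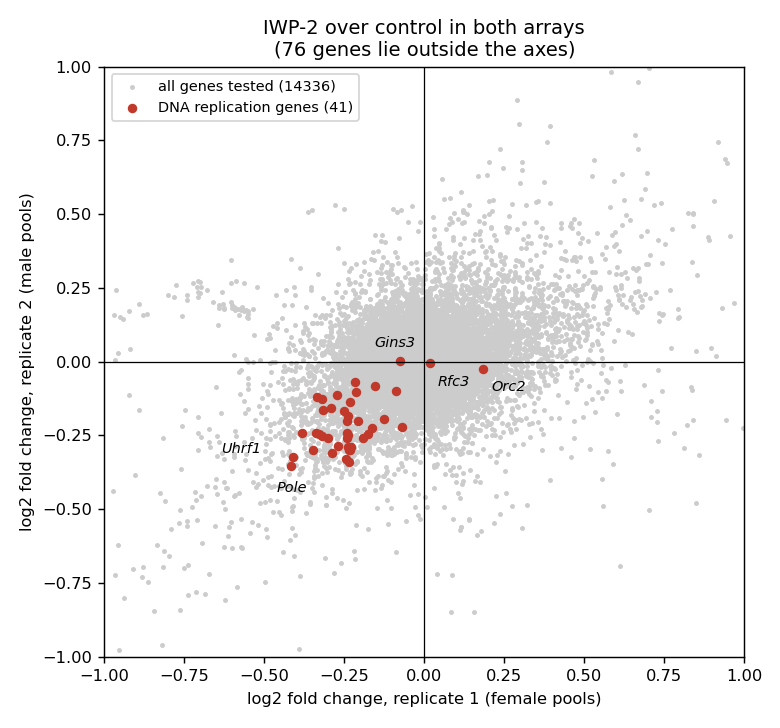
Log2 fold change in replicate 1 (horizontal) against replicate 2 (vertical) for all 14336 genes tested (grey) and the 41 replication genes (red), both axes IWP-2 over control. Apart from *Gins3*, *Rfc3* and *Orc2*, the red points lie in the lower left quadrant, and 76 genes lie outside the axes.

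Promoter windows were examined for words that E2F factors are known to bind, because many replication genes are transcribed by E2F factors. Windows of 250 bases before to 50 bases after the transcription start were taken from RefSeq (GRCm38.p6) and were at hand for 36 of the 43 genes, without *Mcm4*, *Pole*, *Ccne2*, *Prim2*, *Gins2*, *Rfc2* and *Gins1*. The words TTTCCCGC, TTTCGCGC, TTTGGCGC and TTTGCCGC were searched on both strands and were chosen after the expression values were known. At least 1 of them was present in a window of 14 of the 36 genes, which is 38.9%, compared with 2.6% of 27025 genes. The CCAAT word was present in 63.9% of the 36 replication genes and in 41.1% of all genes with a window, and the word TATAAA in 5.56% and 15.7%. In 10 genes an E2F word lay wholly before the start. The stretches around it follow for 7 of them, 5 with lower signals in all treated pools (*Uhrf1*, *Orc1*, *Cdc6*, *Mcm5*, *Mcm6*) and 2 that hardly differed (*Gins3*, *Rfc3*), each 5′ to 3′ on the strand of the gene with the words in capitals. They lie at chr17:56304098-56304165 (*Uhrf1*, plus strand), chr4:108579397-108579453 (*Orc1*, plus), chr11:98907983-98908050 (*Cdc6*, plus), chr8:75109326-75109393 (*Mcm5*, plus), chr1:128359778-128359845 (*Mcm6*, minus), chr8:95633488-95633555 (*Gins3*, plus) and chr5:151651209-151651248 (*Rfc3*, minus).
*Uhrf1*: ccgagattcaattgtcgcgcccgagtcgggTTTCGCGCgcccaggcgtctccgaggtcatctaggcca
*Orc1*: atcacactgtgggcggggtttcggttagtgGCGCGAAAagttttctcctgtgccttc
*Cdc6*: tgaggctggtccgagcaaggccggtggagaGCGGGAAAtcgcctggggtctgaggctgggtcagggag
*Mcm5*: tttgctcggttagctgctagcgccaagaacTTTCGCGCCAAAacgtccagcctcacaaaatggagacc
*Mcm6*: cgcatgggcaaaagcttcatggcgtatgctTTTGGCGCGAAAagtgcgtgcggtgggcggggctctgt
*Gins3*: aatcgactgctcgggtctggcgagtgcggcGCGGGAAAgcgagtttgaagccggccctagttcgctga
*Rfc3*: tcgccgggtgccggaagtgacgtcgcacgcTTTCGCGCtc

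The capitals in *Mcm5* and *Mcm6* hold 2 overlapping words, TTTCGCGC and TTTGGCGC, on opposite strands. A match describes the letters of the window and does not show that a factor was bound there. The 14 tested genes with a word had a median log2 fold change of −0.25 with a range of −0.37 to 0.01, and 12 of them were lower in both arrays. The 21 tested genes with a window but no word had a median of −0.22 with a range of −0.32 to 0.08, and 20 were lower in both arrays. The difference between these sets was not tested.

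**Figure D3:**
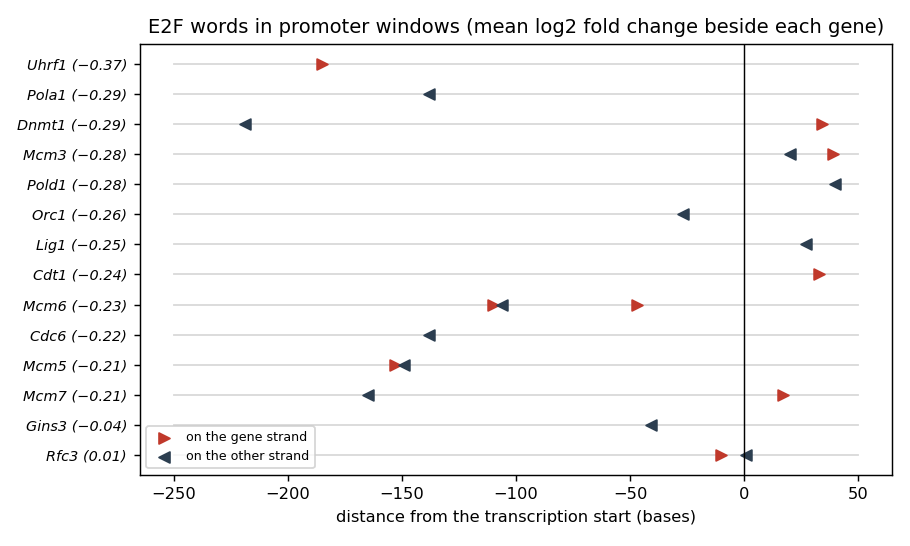
Position of each E2F word (horizontal axis, bases from the transcription start) in the promoter windows of the 14 replication genes that hold 1 or more, with triangles pointing right for the strand of the gene and left for the other strand, and the mean log2 fold change (IWP-2 over control) beside each gene name. *Uhrf1* at −0.37 and *Rfc3* at 0.01 both carry a word before the start.

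Origin licensing was represented by 5 genes, of which 4 were lower in both arrays, with a median log2 fold change of −0.22. *Cdt1*, the loader that brings MCM to the origin, had signals of 1645 and 1722 in the control pools and of 1392 and 1456 in the treated pools. Both treated pools lay below both controls, with a log2 fold change of −0.24 in each array (limma, adjusted p = 0.174). *Orc1*, the largest subunit of the origin recognition complex, gave 144 and 150 in the control pools but 122 and 123 in the treated pools, with a mean log2 fold change of −0.26 (limma, adjusted p = 0.149). *Cdc6*, the ATPase that works with CDT1, differed between the arrays, with −0.32 in replicate 1 and −0.13 in replicate 2, while its second probe gave −0.30 and −0.29. For *Orc6*, the smallest subunit, the log2 fold change was −0.15 and −0.08. *Orc2*, another subunit of the complex, stood apart. The control pools gave 447 and 456, and the treated pools 507 and 448, so that the treated pool was higher in replicate 1 and slightly lower in replicate 2 (log2 fold changes 0.18 and −0.03, limma adjusted p = 0.854).

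All 6 subunits of the MCM2-7 helicase were lower in both arrays, with a median log2 fold change of −0.23, and all 6 had an unadjusted p under 0.05. *Mcm2* had signals of 2172 and 2072 in the control pools and of 1707 and 1685 in the treated pools. The pools of a condition differed far less from each other than the conditions did, and the mean log2 fold change was −0.32 ± 0.0671 (limma SE, adjusted p = 0.0988). *Mcm3* had control signals of 4167 and 4009, treated signals of 3381 and 3349, and a mean log2 fold change of −0.28 (limma, adjusted p = 0.133). Its second probe gave a mean of −0.27. *Mcm4* and *Mcm6* were lower by more in replicate 1 than in replicate 2, with log2 fold changes of −0.32 and −0.16 for *Mcm4* and of −0.34 and −0.12 for *Mcm6*. The 2 subunits with the smallest mean were *Mcm5* and *Mcm7*, both at −0.21, and their arrays differed in opposite directions, −0.18 and −0.25 for *Mcm5* against −0.24 and −0.18 for *Mcm7*.

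Of the 6 genes that activate the helicase, 5 were tested and 4 were lower in both arrays, with a median of −0.27. *Gins1*, a GINS subunit, had control signals of 764 and 818, treated signals of 604 and 692, and a mean log2 fold change of −0.29 (limma, adjusted p = 0.133). A second GINS subunit, *Gins2*, gave 1286 and 1365 in the control pools but 1095 and 1110 in the treated pools, with a mean of −0.27. *Gins3*, another subunit, did not follow them. Its signals were 12067 and 11245 in the control pools and 11448 and 11250 in the treated pools, which overlap, and its mean log2 fold change of −0.04 became 0.0065 when each array was centred on its median instead of loess-normalized. *Mcm10*, which helps the helicase to fire, had log2 fold changes of −0.24 and −0.30, and *Cdc45*, a subunit of the active helicase, of −0.27 and −0.11. The kinase gene *Cdc7*, which switches on the loaded helicase, was too dim to test, at 63.4 and 57.0 in the control pools against 71.1 and 69.5 in the treated pools. Its second probe was lower in replicate 1 (−0.12) and higher in replicate 2 (0.19).

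All 6 polymerase and primase genes were lower in both arrays, with a median of −0.25. The lowest value of the whole list was that of *Pole*, the catalytic subunit of the leading-strand polymerase epsilon. Its signals were 1202 and 1232 in the control pools and 902 and 963 in the treated pools. Both treated pools lay well below both controls, with a mean log2 fold change of −0.38 ± 0.0675 (limma SE, adjusted p = 0.0621). The limma adjusted p was 0.0370 with normexp background correction and 0.0162 from the authors' rounded fold changes. It was 0.0802 without further normalization, 0.0814 with median centring and 0.479 without pairing. Without a filter on dim genes it was 0.589, and with a filter on signals well above background 0.482. A second, dim probe of *Pole* gave −0.54 and −0.51, and another probe was at the floor. *Pola1*, the catalytic subunit of polymerase alpha, which starts each strand, had signals of 1159 and 1159 in the control pools, of 922 and 977 in the treated pools and a mean log2 fold change of −0.29 (limma, adjusted p = 0.132). Its partner subunit *Pola2* gave −0.09 and −0.10, one of the smallest differences on the list. The catalytic subunit of polymerase delta, *Pold1*, had log2 fold changes of −0.27 and −0.29 (limma, adjusted p = 0.134). The primase subunits were lower by more in replicate 1 than in replicate 2, with −0.29 and −0.16 for *Prim1* and −0.21 and −0.10 for *Prim2*.

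**Figure D4:**
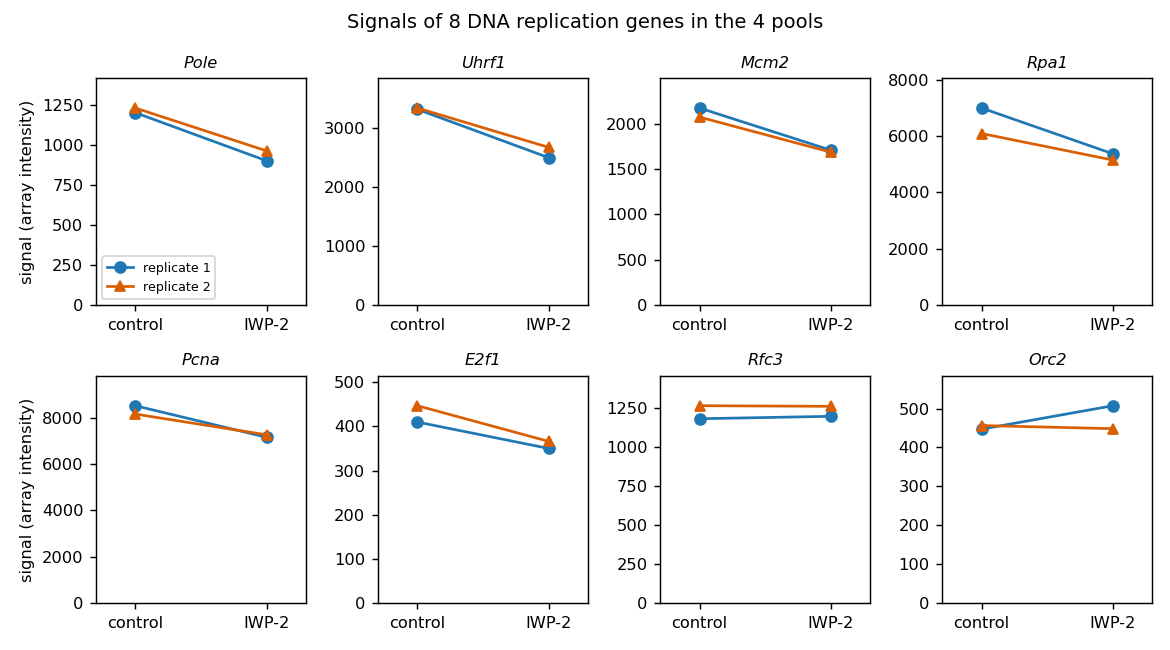
Array signal (intensity, vertical axis from 0, 1 scale per gene) of 8 replication genes in the control and IWP-2-treated pools, with circles for replicate 1 and triangles for replicate 2 and a line joining the 2 pools of an array. *Pole*, *Uhrf1*, *Mcm2*, *Rpa1*, *Pcna* and *E2f1* are lower in both treated pools, *Rfc3* is level and *Orc2* is higher in 1 of them.

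Of the 6 genes for the clamp and its loader, 5 were lower in both arrays, with a median of −0.16. *Pcna*, the sliding clamp and a common proliferation marker, had signals of 8510 and 8149 in the control pools and of 7144 and 7253 in the treated pools. The groups did not overlap, and the mean log2 fold change was −0.21 (limma, adjusted p = 0.243). The loader, replication factor C, has 5 subunits. *Rfc5* and *Rfc4* gave means of −0.19 and −0.18. The arrays differed more for *Rfc2*, with −0.07 in replicate 1 and −0.22 in replicate 2, and for *Rfc1*, with −0.22 and −0.07. *Rfc3* was level, with 1182 and 1265 in the control pools and 1197 and 1261 in the treated pools, and log2 fold changes of 0.02 and −0.0045 (limma, adjusted p = 0.996).

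Replication protein A, which covers single-stranded DNA, was lower in both arrays for all 3 subunits. *Rpa1*, the large subunit that binds DNA, gave 6990 and 6086 in the control pools but 5366 and 5144 in the treated pools, with log2 fold changes of −0.38 and −0.24 (limma, adjusted p = 0.123). Its second probe gave −0.51 and −0.22. *Rpa2* and *Rpa3*, the smaller subunits, had means of −0.20 and −0.16. Both genes for the joining of Okazaki fragments on the lagging strand were lower by nearly the same amount in each array. *Fen1*, the flap nuclease, gave −0.24 and −0.25, and *Lig1*, the ligase that seals the nicks, gave −0.24 and −0.26.

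The 4 genes for the supply of DNA building blocks had a median of −0.29 and were all lower in both arrays, each with an unadjusted p under 0.05. *Rrm1*, the large subunit of ribonucleotide reductase, had control signals of 3381 and 3241, treated signals of 2766 and 2612, and log2 fold changes of −0.29 and −0.31 (limma, adjusted p = 0.115). *Rrm2*, its S phase-restricted small subunit, had control signals of 5633 and 5299, treated signals of 4515 and 4451, and a mean of −0.29 (limma, adjusted p = 0.131). In both, every treated pool lay below every control pool by more than the pools of a condition differed. *Tk1*, the thymidine kinase of dividing cells, gave −0.24 and −0.34, and a second probe gave −0.14 and −0.34. *Tyms*, thymidylate synthase, had dim signals between 123 and 155 and a mean of −0.22.

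*Uhrf1* and *Dnmt1* copy DNA methylation onto the new strand. *Uhrf1*, which recognises hemimethylated DNA and recruits DNMT1, had signals of 3318 and 3340 in the control pools and of 2498 and 2673 in the treated pools. Its mean log2 fold change of −0.37 was the second lowest on the list (limma, adjusted p = 0.0775), although a dimmer second probe gave only −0.17. *Dnmt1*, the maintenance methyltransferase, had control signals of 742 and 785, treated signals of 626 and 625, and a mean of −0.29 (limma, adjusted p = 0.133). Among the genes for entry into S phase, *E2f1*, a transcription factor that activates replication genes, had control signals of 410 and 447, treated signals of 350 and 366, and a mean of −0.26 (limma, adjusted p = 0.157). *Ccne1*, the cyclin partner of CDK2, gave −0.19 and −0.26, with −0.19 and −0.24 on its second probe. *Ccne2*, the related cyclin, was too dim to test, with signals of 18.2 and 17.1 in the control pools and of 15 (the floor) and 16.2 in the treated pools.

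A second list of 53 further replication and S phase genes was mostly lower in treated ureters as well. Of the 51 tested, 42 were lower in both arrays and 3 were higher in both, against 29.1% and 25.7% of all genes tested, with a median of −0.17. At an unadjusted p under 0.05, 26 were lower, against 6.64% of all genes tested. Under limma with adjustment over all genes, 1 was called lower and 0 higher, against 0.886% and 0.363% of all genes tested. The gene called was *E2f8*, an atypical E2F that represses E2F targets late in S phase. Its signals were 1067 and 1203 in the control pools and 809 and 890 in the treated pools, and it fell by 0.42 ± 0.0668 on the log2 scale (limma SE, adjusted p = 0.0468). The call was also made with normexp background correction, with a floor of 1 and with outlier spots kept, and was lost under the other 7 alternatives. The next lowest were *Atad5*, which unloads PCNA from DNA, at −0.40, and *Recql4*, a helicase needed for replication initiation, at −0.38 (limma, adjusted p = 0.0804 for each). The highest were *Ung* at 0.08, the enzyme that removes uracil from DNA, *Orc5* at 0.06, a further subunit of the origin recognition complex, and *Samhd1* at 0.04, an enzyme that breaks down the building blocks of DNA.

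Markers of some cell types also differed in the same direction in both arrays. Of all genes tested, 25.7% were higher and 29.1% were lower in both. Of 11 urothelial markers, 8 were higher in both arrays and 0 were lower in both, with 0 called, and their summed signal was 139261 and 168979 in the control pools and 175239 and 174610 in the treated pools. Of 9 smooth muscle markers 5 were higher in both arrays, with summed signals of 100786 and 85755 in the control pools and of 100724 and 100349 in the treated pools. Of 7 lamina propria and fibroblast markers 4 were lower in both arrays, with summed signals of 139954 and 125216 in the control pools and of 119935 and 126244 in the treated pools. Of the last group *Aldh1a2*, which encodes a retinoic acid-synthesising enzyme of the lamina propria, was called lower, at −0.63 (limma, adjusted p = 0.0280), a call lost under 5 of the 10 alternatives. Of 5 macrophage markers tested, 3 were higher and 1 was lower in both arrays. Of 6 endothelial markers 2 were higher and 2 lower, of 5 Schwann cell and neuron markers 1 and 2, and of 3 adipocyte markers 1 and 0. In these types 0 markers were called. The adipocyte markers *Adipoq* and *Cfd* went opposite ways in the arrays, with log2 fold changes of −0.55 and 1.40 and of −0.87 and 3.19. Their signals also differed between the control pools, at 300 and 66.3 for *Adipoq* and at 274 and 19.7 for *Cfd*. Among markers of kidney tubule and glomerulus, 0 of 6 were bright enough to test and 4 were at the floor in all channels. The part of these markers in the lower signals of the replication genes was not tested.

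**Figure D5:**
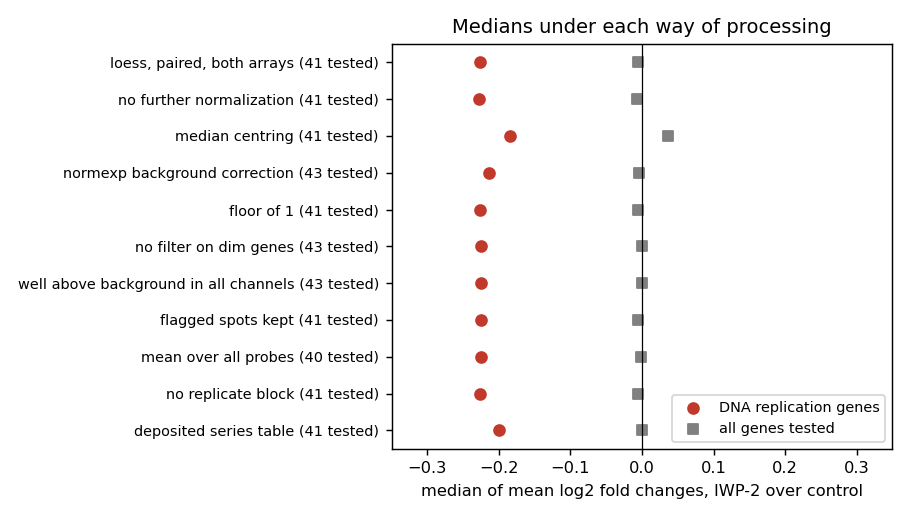
Median of the mean log2 fold changes (horizontal axis, IWP-2 over control) of the replication genes (red circles) and of all genes tested (grey squares) under each way of processing, with the number of replication genes tested in brackets. The red circles lie between −0.23 and −0.18 and the grey squares between −0.0074 and 0.036.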

How the data were processed

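The deposited array files hold processed signal intensities from Feature Extraction 12.2.0.7, per the file headers (10.7.3.1 in the submitters' processing notes), in which background had been subtracted and dyes normalized. The authors' series table holds a score per probe and array, a signed fold change with 1 decimal, and was used as an alternative. Control spots (17263) and outlier spots were removed. Signals were normalized within arrays by loess (span 0.3) in limma 3.58.1 (R 4.3.3), reduced to the mean of the 4 spots per probe, and floored at 15. The brightest probe stood for each gene, under the array's gene name. Genes with a mean signal above 100 in 1 condition were tested with lmFit and eBayes on the 2 log2 ratios of treated over control, with Benjamini-Hochberg adjustment at 0.05. The code was tested on simulated data. Every replication gene is named, and of the second list those called and the 3 highest and lowest. The members and lists were chosen with earlier results of these data known. Each ratio pairs the pools of 1 array. Sex and dye orientation are confounded, and the 2 arrays leave 1 residual degree of freedom. The variances behind the p-values were therefore mostly shared over all genes tested (5.49 prior degrees of freedom), and take in only spread of the kind seen between these 2 arrays. Alternatives were no further normalization, median centring, normexp background correction (offset 50), a floor of 1, no filter on dim genes, a filter on signals well above background, keeping outlier spots, the mean over probes, no pairing, the series table, and leaving out each replicate.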

Additional observations from a re-analysis of the deposited data

Results flagged for a closer look

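In 3 replication genes the female and the male array gave log2 fold changes of opposite sign. Female minus male was −0.077 for *Gins3* (−0.08 and 0.00068), 0.023 for *Rfc3* (0.02 and −0.0045) and 0.21 for *Orc2* (0.18 and −0.03). These differences were not tested, since each sex was measured on 1 array, and sex cannot be told apart from dye orientation.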

How the results depend on the processing

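With 2 arrays, 1 library decides the sign of genes near 0. The median of the replication genes was below 0 under all 10 alternatives and without either replicate (range −0.241 to −0.239). Beside −0.227 with the settings used, it was −0.184 with median centring, −0.214 with normexp, −0.20 in the series table and, nearly equal, −0.225 with the mean over probes. With 40 to 43 replication genes tested, between 36 and 39 were lower in both arrays. The share of all genes tested that was lower in both also moved. It was 29.1% with the settings used, 17.7% without a filter on dim genes, 16.0% with median centring and 10.5% in the series table. Genes higher in both numbered 2 with median centring, and 1 each without further normalization, with normexp, without a filter on dim genes and with the filter on signals well above background. With normexp, 1 of 43 replication genes (*Pole*) was called lower, beside 257 of all 19789 genes tested with that setting. Among the series table values 14 of 41 replication genes were called lower, beside 698 of all 14336 genes tested. The same number of replication genes, 14, were lower at an unadjusted p under 0.05. All 14 genes called had equal values in both arrays after rounding to 1 decimal. Without the replicate block, that is without the pairing, 0 were called, with a lowest adjusted p of 0.479, and 27 were lower at an unadjusted p under 0.05. The 6.64% of all genes given above for that threshold belongs to the paired fit, and the share without the pairing is not reported here. Over all genes, calls numbered 117 without further normalization (32 higher), 427 with normexp (257 lower, 170 higher), 67 with the mean over probes (50 lower, 17 higher), 1 without the block (1 lower, 0 higher) and 1321 in the series table (698 lower, 623 higher). With median centring 85 were higher. Without a filter on dim genes, and with the filter on signals well above background, 0 were called in either direction. *Gins3* was 0.0065 with median centring, and *Rfc3* was 0 in the series table. Leaving out a replicate gave ranges of −0.076 to 0.00068 for *Gins3*, −0.026 to 0.18 for *Orc2* and −0.0045 to 0.019 for *Rfc3*. The causes were not tested, apart from the rounding of the series table.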

Other observations

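Genes of mitosis, which act after replication is complete, were also lower. Of 25 such genes 23 were tested, and 23 were lower in both arrays, against 29.1% of all genes tested. Their median log2 fold change was −0.28, beside −0.23 for the replication genes. Under limma 0 were called with adjustment over all genes, against 1.25% of all genes tested. At an unadjusted p under 0.05, 22 were lower, against 6.64%. Their promoter windows differed in content from those of the replication genes. An E2F word was present in 1 of 22 mitosis genes with a window and in 14 of 36 replication genes. The words TTTGAA and TTCGAA are core letters of the cell cycle homology region bound in G2 and M phase genes. At least 1 of them was present in 17 of the 22 mitosis genes and in 8 of the 36 replication genes, compared with 21.7% of all genes with a window. The CCAAT word was present in 20 of the 22 mitosis genes and in 23 of the 36 replication genes, compared with 41.1%. The words were chosen with the expression values known, and these shares are descriptions without a test.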
